A study of Mus musculus with 4 samples.

Results

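The clustered protocadherin locus was examined in 4 Micro-C contact libraries as the region of mouse chromosome 18 from 36.7 to 38.1 Mb (GRCm38, chr18:36700001-38100000). Its members were chosen by position alone: every listed pair of 8 kb bins with both bins inside the region. The list of the ESC libraries held 6026 such pairs among 23095428 pairs in all, and the list of the MN libraries held 5819 among 21005697. A total of 15225 pairs are possible between the 174 bins of the region. The 3 gene blocks hold 58 annotated protocadherin genes and were taken as alpha (36.93 to 37.19 Mb), beta (37.26 to 37.52 Mb) and gamma (37.66 to 37.85 Mb). The 70 kb between alpha and beta are called the alpha-beta interval, and the 100 kb after gamma the downstream interval.

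The libraries came from mouse E14 (ES-E14TG2a) embryonic stem cells and from cervical motor neurons derived from them. The ESCs were kept in LIF and 2i, and the MNs were made through embryoid bodies with retinoic acid and the Smoothened agonist SAG. Each state was profiled as WT and as PATZ1 KO, in which the zinc finger gene Patz1 had been disrupted by CRISPR, so all 4 groups share the E14 background. There was 1 library per group. Whether the KO library of a state came from a single clone is not given in the sources used here. Micro-C cuts crosslinked chromatin with micrococcal nuclease and reads which fragments were ligated, and it gives no expression, so the identity of the cells could not be checked against marker genes. Listed contacts came to 170946673 in WT ESCs, 160496081 in KO ESCs, 110991835 in WT MNs and 118032533 in KO MNs, of which the region held 73247, 66289, 47454 and 50146. In every library this was between 1.24% and 1.25% of the contacts of chromosome 18. The bin of the Patz1 start held 562 contacts in WT ESCs, 399 in KO ESCs, 380 in WT MNs and 228 in KO MNs, which is no test of a small CRISPR edit.

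Clustered protocadherins are cell surface adhesion proteins, and the combination that a neuron displays lets it tell its own branches from those of other neurons. Each variable exon of the alpha and gamma blocks has its own promoter and is spliced to constant exons at the end of its block, while each beta gene is a single exon. Alternate promoters are chosen at random in single neurons, and C-type promoters at the end of the alpha and gamma blocks are used more uniformly. The factor CTCF and cohesin bring promoters to distal enhancers. The enhancer of the alpha block lies just after its constant exons, in the alpha-beta interval, and enhancers used by the beta and gamma genes lie after the gamma block, inside the formin gene Diaph1.

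Contacts fall steeply with distance, so each count was divided by the mean count of all chromosome 18 pairs at the same distance in the same library. A value of 1, or 0 on the log2 scale, is that mean. Brackets give 95% intervals of counting error (exact Poisson for a level, exact binomial for a ratio of libraries). With 1 library per group no p-value was computed, and no interval here holds the spread between cultures. As a description, each shape was also slid along the rest of chromosome 18, in 10405 to 10660 placements.

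The make-up of the lists bears on every value. A pair is listed for a cell state only if both its WT and its KO library hold at least 1 contact, so an unlisted pair is not a pair without contacts. Counting it as 0, as was done here, overstated differences in simulated data where few pairs were listed. Apart from the changes put in, the simulation gave all pairs at a distance the same mean, itself taken with unlisted pairs as 0. The size of the overstatement need not carry over to these lists. A second estimate for the blocks, chosen after seeing the data, allowed for unlisted pairs with a Poisson model of listing. The genes are also close paralogs, and bins that hold alike sequence can lose reads, which was not measured here. The total of a promoter bin ran from 0.526 (Pcdhb9) to 1.12 (Pcdhb21) times the chromosome median in WT ESCs. The median bin stood at 0.793 in beta and at 0.594 between beta and gamma in that library, and the cause of these differences was not tested. The libraries of a cell state are numbered in the files and not named, and the first was read as WT and the second as KO because the comparison is written as WT against KO.

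**Figure D1:**
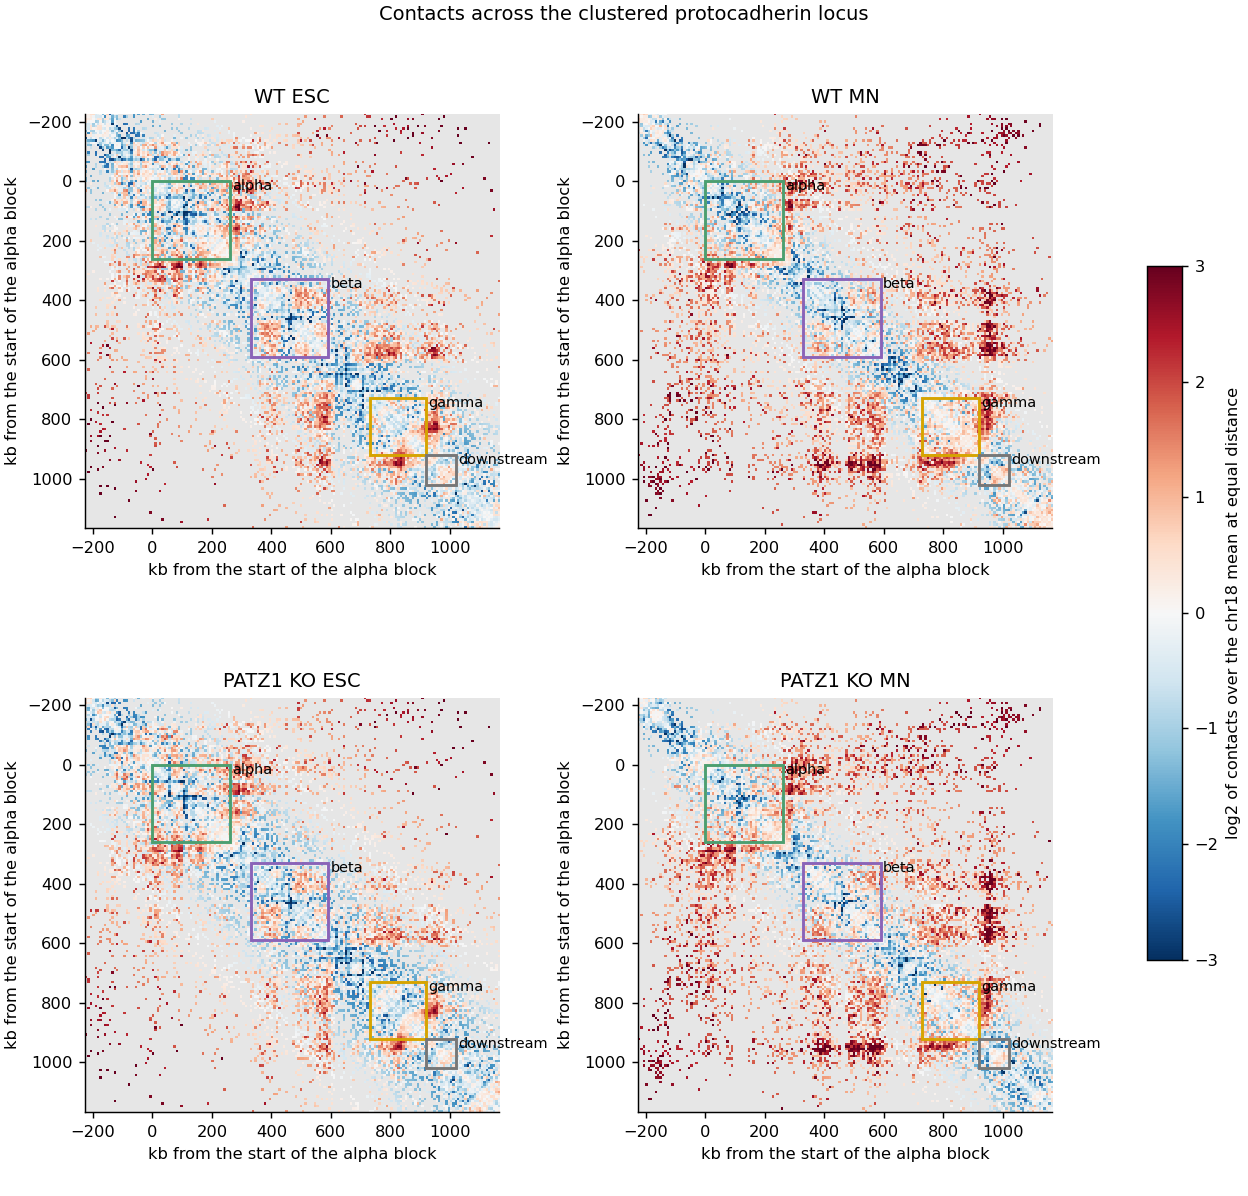
Log2 of contacts over the chromosome 18 mean at equal distance for every listed pair of 8 kb bins of the region, in WT and PATZ1 KO ESCs (left) and MNs (right). Both axes give kb from the start of the alpha block, boxes mark the blocks and the downstream interval, and grey pairs are not listed; the stripe between the beta block and the downstream interval is darker red in both MN maps.

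The beta block contacted the downstream interval, 336 to 688 kb away, more in MNs than in ESCs, and did so in both genotypes. This combination held 380 contacts in WT ESCs, 288 in KO ESCs, 707 in WT MNs and 781 in KO MNs, although the MN libraries were the shallower ones. Relative to the mean at equal distance the levels were 1.02, 0.824, 2.78 and 3.01. MNs exceeded ESCs by 1.45 on the log2 scale in WT (1.27 to 1.63) and by 1.87 in PATZ1 KO (1.67 to 2.07). Of the placements of the same shape along chromosome 18, 0.626% had a higher ratio in WT and 0.00948% in KO. With the listing modelled the log2 ratios were 0.74 and 1.52, over pairs listed in both states 0.68 and 1.07, and with means over listed pairs alone 0.54 and 0.95, so the direction held and the size did not. In the ESC list 36.4% of these pairs were present, and in the MN list 56.2%.

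The 22 beta genes start in 19 bins, and Pcdhb13 with Pcdhb14, Pcdhb15 with Pcdhb16, and Pcdhb21 with Pcdhb22 share a bin and cannot be told apart. In WT ESCs 6 of the 19 bins stood above the mean at equal distance with the downstream interval, and so did 6 in KO ESCs, where 41.4% and 41.5% of chromosome 18 bins at the same distances did. In WT MNs and in KO MNs 18 of 19 did, against 40.1% in each. The medians over the bins were 0.775 in WT ESCs, 0.698 in KO ESCs, 3.20 in WT MNs and 3.86 in KO MNs. With bin totals divided out, the ESC medians came to 1.07 and 1.22, with 10 and 12 bins above the mean, and the MN medians to 3.80 and 4.03. The share of chromosome 18 bins above the mean was not computed for this setting, so these 2 counts have nothing to be set against. The ESC bins above the mean were those nearest to gamma, Pcdhb15 with Pcdhb16, Pcdhb17, Pcdhb18, Pcdhb19, Pcdhb20, and Pcdhb21 with Pcdhb22. The bins of Pcdhb1 and Pcdhb8 had no listed pair with the interval in ESCs.

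The bin shared by Pcdhb21 (chr18:37513621-37518325) and Pcdhb22 had the highest mean over the 4 libraries. It made 48 contacts with the interval in WT ESCs, 40 in KO ESCs, 63 in WT MNs and 54 in KO MNs, or 2.81, 2.54, 6.03 and 5.10 times the mean. Pcdhb4, near the other end of the block, held 3, 4, 27 and 28 contacts, which is 0.363, 0.512, 4.35 and 4.39 times the mean. The MN values of Pcdhb4 thus lay in the range of the genes nearest to gamma, while its ESC values, which rest on 3 and 4 contacts, were under theirs. Pcdhb4 was named after its values were seen and does not stand for that end of the block. Its MN levels were above those of Pcdhb3, by a log2 ratio of 1.02 in WT and 1.08 in KO. The ratio of Pcdhb5 to Pcdhb4 was -0.56 in WT MNs (-1.49 to 0.34) and -0.28 in KO MNs (-1.13 to 0.56). Pcdhb8 was not listed in either ESC library and stood at 1.43 and 1.39 in WT and KO MNs with 10 contacts each. Pcdhb1, the gene at the alpha end, stayed below the mean in MNs as well (0.710 and 0.693, 4 contacts each).

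Among the 17 beta bins with contacts in both states, all were higher in MNs than in ESCs in WT, and all 17 were in KO (49.3% and 49.4% of chromosome 18 bins at the same distances were). The counting interval lay above 0 in 15 of them in WT, where 6.58% of those bins did so, and in 16 in KO, where 6.27% did. The median log2 ratio was 1.88 in WT (0.49 to 3.58 over the bins) and 1.89 in KO (1.00 to 3.28). These bins share 1 target window and neighbouring sequence, and are not independent. Other treatments of unlisted pairs, which changed the size of the block ratio, were not tried for single promoter bins. Neighbouring bins were also compared directly, by the ratio of their levels within a library. The counting interval lay away from 0 for 6 of 18 neighbours in WT MNs and 4 of 18 in KO MNs, against 1 of 15 in WT ESCs and 0 of 15 in KO ESCs, where 3 more held an unlisted bin. Neighbours at the same distances elsewhere on chromosome 18, at any contact level, did so in 8.17%, 8.62%, 11.3% and 10% of cases in the same order. The counts in ESCs lay near or below those shares. Pcdhb2 over Pcdhb1, Pcdhb4 over Pcdhb3, Pcdhb7 over Pcdhb8 and Pcdhb10 over Pcdhb9 were higher in this sense in both MN libraries. Pcdhb8 and Pcdhb9 lie in bins of low total (0.553 and 0.476 of the chromosome median in WT MNs), whose part in this was not tested. Fewer contacts give wider intervals, so the neighbour counts depend on contact numbers as well as on levels, and these were not told apart.

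**Figure D2:**
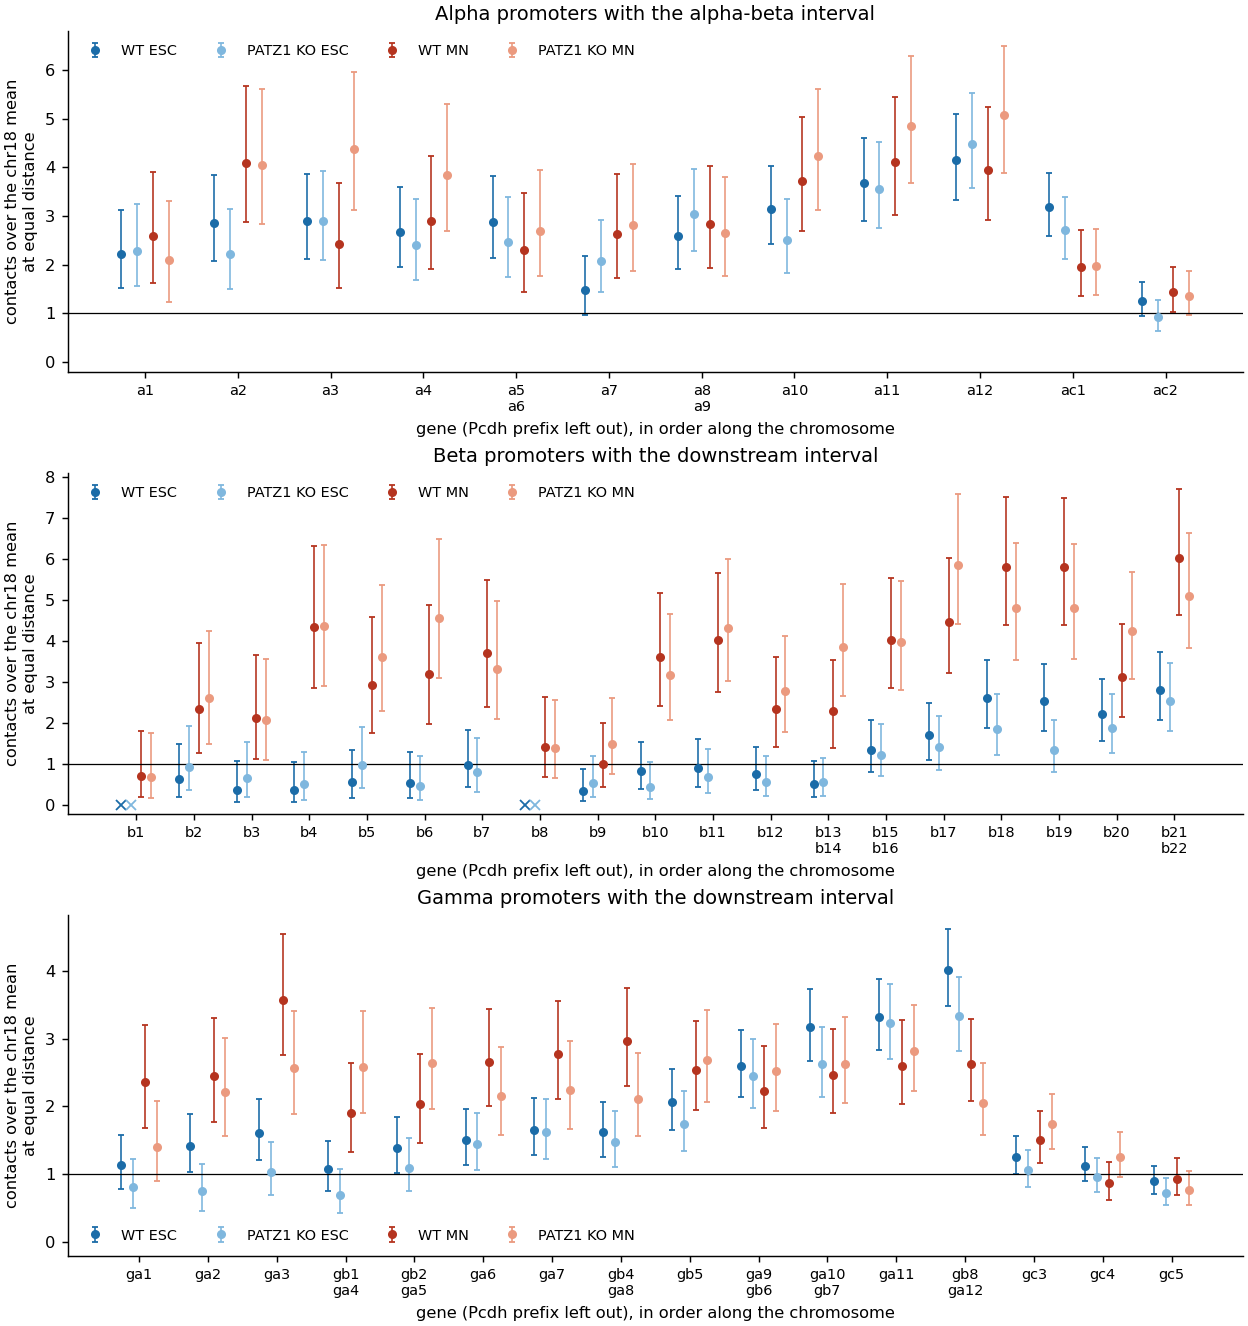
Contacts of the bin of each annotated protocadherin start with its enhancer interval, over the chromosome 18 mean at equal distance (y axis), by gene in chromosomal order (x axis); points are the 4 libraries, bars 95% counting intervals and crosses bins with no listed pair. Most beta bins sit below 1 in ESCs and above 2 in MNs, while alternate alpha bins sit above 1 in all 4 libraries.

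The contact of the beta genes was concentrated in part of the downstream interval. Summed over the 19 beta bins, the interval bin at chr18:37880001-37888000 held 38 contacts in WT ESCs, 26 in KO ESCs, 109 in WT MNs and 113 in KO MNs. That bin stood at 9.02 (WT) and 9.17 (KO) times the mean in MNs, against 2.09 and 1.53 in ESCs. Its neighbour at chr18:37872001-37880000 stood at 6.16 and 7.91 in MNs. Both bins lie within the gene body of Diaph1 (chr18:37843601-37935476, minus strand), the gene in which enhancers of the beta and gamma blocks are known. The level was 0.680 and 0.381 in WT and KO MNs in the last bin of the interval, inside Hdac3, which encodes a histone deacetylase. In ESCs the highest bin was chr18:37872001-37880000, with 44 contacts in WT (2.35) and 32 in KO (1.83).

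**Figure D3:**
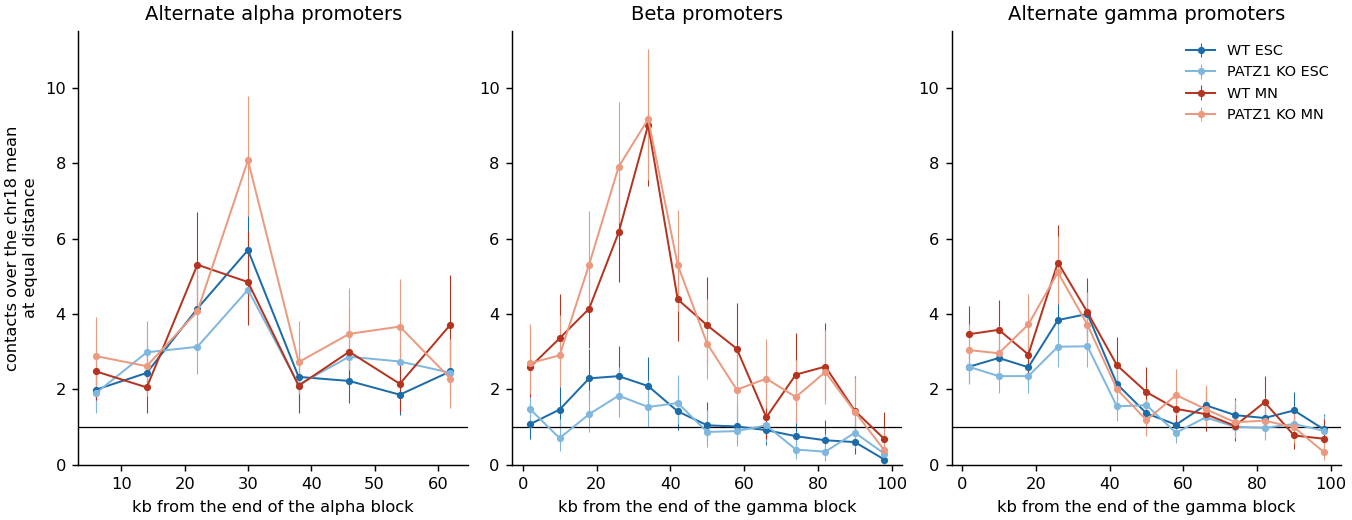
Contacts of all alternate alpha, beta or alternate gamma promoter bins with each 8 kb bin of the interval after the alpha block (left) or after the gamma block (middle and right), over the chromosome 18 mean at equal distance (y axis), by kb from the end of that block (x axis); bars are 95% counting intervals. The peak of the beta promoters lies in the same pair of bins in both MN libraries, at 6.16 to 9.17.

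The alternate gamma promoters contacted the same stretch of Diaph1. The 19 alternate gamma genes start in 13 bins, and their median contact with the downstream interval was 1.62 times the mean in WT ESCs, 1.48 in KO ESCs, 2.54 in WT MNs and 2.52 in KO MNs. The highest bin of the interval was chr18:37880001-37888000 in WT ESCs (165 contacts, 4.001) and KO ESCs (116 contacts, 3.14), and chr18:37872001-37880000 in WT MNs (133 contacts, 5.36) and KO MNs (128 contacts, 5.10). In ESCs the level ran along the block: the Pcdhga1 bin stood at 1.13 and 0.810 in WT and KO, and the bin of Pcdhga12 at 4.02 and 3.33. Pcdhgb8 starts in the same bin as Pcdhga12, and the contacts of these genes cannot be told apart. In MNs these bins were closer to each other, at 2.35 and 1.402 for Pcdhga1 and 2.63 and 2.06 for Pcdhga12. By the mean over the 4 libraries Pcdhga11 was highest (3.33, 3.22, 2.60 and 2.81) and Pcdhga1 lowest. MNs exceeded ESCs in 9 of 13 bins in WT (47.6% of chromosome 18 bins) and in 11 of 13 in KO (48.6%). The interval lay above 0 in 7 and 5 of them (8.17% and 7.58% of chromosome 18 bins) and below 0 in 1 and 1 (8.29% and 7.75%). The bin of Pcdhga12 was the highest of the 13 in both ESC libraries and in neither MN library. With bin totals divided out, the medians came to 1.99, 2.21, 2.30 and 2.59, and the block as a whole turned to a lower level in MNs than in ESCs (log2 ratios of -0.22 in WT and -0.10 in KO, against 0.14 and 0.20).

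The C-type gamma genes, which lie nearest to the interval, stood closer to the chromosome mean. Pcdhgc3 stood at 1.26, 1.06, 1.51 and 1.74 in WT ESCs, KO ESCs, WT MNs and KO MNs. Pcdhgc4 stood at 1.13, 0.961, 0.863 and 1.25, and Pcdhgc5 at 0.899, 0.723, 0.934 and 0.769. These levels rest on 40 to 85 contacts per library and gene.

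The alpha block had its strongest contacts with the interval that follows it, and these were present in both cell states. The block held 1920 contacts with the alpha-beta interval in WT ESCs, 1600 in KO ESCs, 1099 in WT MNs and 1215 in KO MNs. The log2 levels were 0.72 (0.65 to 0.78), 0.63 (0.56 to 0.70), 0.63 (0.55 to 0.72) and 0.75 (0.67 to 0.83). Between 95.04% and 99.33% of chromosome 18 placements of this shape were lower. MNs differed from ESCs by a log2 ratio of -0.09 in WT (-0.19 to 0.02) and by 0.12 in KO (0.01 to 0.23). With bin totals divided out these ratios came to 0.26 in WT, with the sign turned, and 0.12 in KO.

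All 10 bins that hold the 12 alternate alpha starts stood above the mean with this interval in all 4 libraries, where 46.1%, 45.6%, 42.9% and 44.9% of chromosome 18 bins did at the same distances in WT ESCs, KO ESCs, WT MNs and KO MNs. Their medians were 2.87 in WT ESCs, 2.48 in KO ESCs, 2.87 in WT MNs and 3.94 in KO MNs. With bin totals divided out they came to 4.21, 3.78, 6.66 and 6.33, higher in both MN libraries than in both ESC libraries. Pcdha12 (chr18:37020149-37187657), the alternate gene nearest to the constant exons, had the highest mean over the 4 libraries, with 89, 86, 48 and 62 contacts and levels of 4.15, 4.47, 3.95 and 5.07. Pcdha7 had the lowest mean, at 1.48, 2.07, 2.63 and 2.82. The interval bins with the highest levels were chr18:37208001-37216000 and chr18:37216001-37224000. The second of them stood at 5.69, 4.64, 4.85 and 8.08 and was the highest in each library but WT MNs, where the first stood at 5.31. None of the 10 alternate alpha bins had a counting interval above 0 for MNs against ESCs in WT (6.06% of chromosome 18 bins did), and 2 did in KO (5.63%). Of the 9 pairs of neighbouring alternate alpha bins, the ratio lay beyond counting error in 2 in WT ESCs, where Pcdha7 was lower than both its neighbours, in 1 in KO MNs and in 0 in KO ESCs and WT MNs. On chromosome 18 it did so in 12.8% of such neighbours in WT ESCs, 11.1% in KO ESCs, 8.72% in WT MNs and 9.17% in KO MNs, so these counts set the alternate alpha bins apart in no library. The Pcdha7 bin also had a low total in WT ESCs, 0.694 of the chromosome median. Its neighbours stood at 0.840 (Pcdha5) and 0.730 (Pcdha8), and the part of these totals was not tested.

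The C-type genes of the alpha block differed from each other in ESCs, where the log2 ratio of Pcdhac2 to Pcdhac1 was -1.35 in WT (-1.85 to -0.86) and -1.57 in KO (-2.19 to -0.97). In MNs it was -0.45 (-1.14 to 0.25) and -0.53 (-1.23 to 0.17). Pcdhac1 made 98 contacts with the alpha-beta interval in WT ESCs, 74 in KO ESCs, 35 in WT MNs and 36 in KO MNs, or 3.19, 2.70, 1.95 and 1.97 times the mean. Its ESC levels were above both MN levels, and the ratio of MNs to ESCs was -0.71 (log2) in WT and -0.46 in KO, with the counting interval below 0 in WT only; the difference between the genotypes was not tested. Pcdhac2 stayed near the mean, at 1.25, 0.913, 1.43 and 1.36.

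Contacts within and between the blocks themselves mostly lay in the range of the rest of the chromosome. Within alpha the log2 levels were -0.14, -0.16, -0.32 and -0.13 in WT ESCs, KO ESCs, WT MNs and KO MNs. Within beta they were -0.18, -0.34, -0.40 and -0.17, and within gamma -0.09, -0.17, 0.25 and 0.03. All 12 values lay in the middle 90% of chromosome 18 placements. Alpha with beta stood under the mean (-0.60, -0.70, -0.70 and -0.53), and beta with gamma above it (0.26, 0.11, 0.54 and 0.55). When each count was first divided by the relative totals of its bins, the levels within each block and between alpha and beta came out above 0 in all libraries, so on which side of the chromosome mean they lie depends on that choice. The levels of alpha with its interval and of gamma with the downstream interval stayed above 0.

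**Figure D4:**
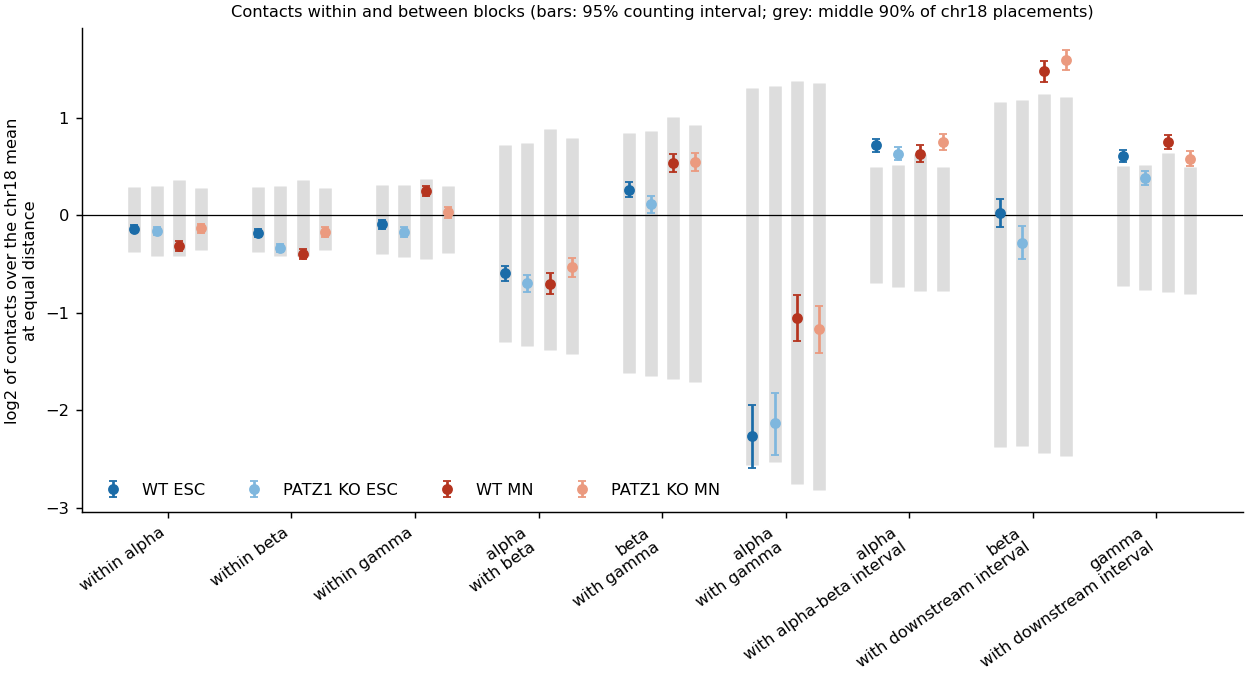
Log2 of contacts over the chromosome 18 mean at equal distance (y axis) for each combination of blocks and enhancer intervals (x axis) in the 4 libraries; bars are 95% counting intervals and grey bars the middle 90% of the same shape placed along the rest of chromosome 18. Beta with the downstream interval lies above the grey range in both MN libraries, at 1.48 and 1.59, and inside it in both ESC libraries.

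Longer contacts across the region rest on small counts. Alpha with gamma, 472 to 912 kb apart, held 80 contacts in WT ESCs, 83 in KO ESCs, 149 in WT MNs and 142 in KO MNs. The log2 levels were -2.26, -2.13, -1.05 and -1.16, and MNs exceeded ESCs by 1.21 in WT (0.81 to 1.62) and 0.97 in KO (0.57 to 1.38). Of the placements, 3.72% and 7.18% had a higher ratio. These values rest on 8.08% and 13.9% of pairs being listed. The ratio was 1.09 in WT and 0.15 in KO with the listing modelled, and -0.30 and -0.24 over pairs listed in both states, so its sign is not settled by these lists. Alpha with the downstream interval held 14, 15, 82 and 86 contacts, and the alpha-beta interval with the downstream interval 3, 2, 26 and 31. These rest on even thinner lists, with 2.56% and 1.92% of the pairs listed in ESCs and 15.6% and 20.2% in MNs. In MNs the log2 levels were -0.58 and -0.56 for the first and -0.65 and -0.44 for the second. The flank before alpha with the downstream interval, at 15, 17, 74 and 74 contacts, stood near the mean at equal distance in MNs (0.07 and 0.02), with 3.71% of pairs listed in ESCs and 15.4% in MNs. Other ways of treating unlisted pairs were not tried for these combinations, nor for those with the flanks. Gamma with the flank after that interval stood at -1.73 and -1.60 in WT and KO ESCs and -2.31 and -2.54 in WT and KO MNs. Alpha with the flank before it was lower in MNs, with log2 ratios of -0.47 in WT (-0.60 to -0.35) and -0.45 in KO (-0.57 to -0.33). Of the placements of this shape, 8.66% in WT and 8.51% in KO had a lower ratio. Of the pairs of alpha with that flank, 48.6% were listed in ESCs and 32.5% in MNs. At least 91.4% of the listed contacts of every block ended inside the region in each library. Far pairs are listed less often, so this share depends on the lists, and no share for other regions is given here. The share of listed beta contacts that stayed inside beta was 48.4% (47.5% to 49.4%) in WT ESCs, 46.8% (45.7% to 47.8%) in KO ESCs, 38.5% (37.4% to 39.6%) in WT MNs and 41.7% (40.6% to 42.7%) in KO MNs.

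The insulation score, the log2 of the mean contact in a 120 kb square spanning a bin over the chromosome mean, showed where contacts were interrupted. The deepest minimum lay in the flank before alpha, just after the zinc finger gene Zmat2. It reached -2.39 and -2.27 in WT and KO ESCs at chr18:36800001-36808000, and -3.29 and -3.47 in WT and KO MNs at chr18:36808001-36816000. Between 0.0185% and 0.102% of the 10783 scored bins of chromosome 18 were lower. Unlisted pairs count as 0 in this score. The square at this minimum spans mostly pairs within the flank, of which 70.2% were listed in ESCs and 54.9% in MNs. The listed share of the square itself was not counted. Other treatments of unlisted pairs or of bin totals were not tried for the score. Between alpha and beta the minimum was at the Pcdhb2 bin in both ESC libraries (-1.04 and -1.08), and at or just before the Pcdhb1 bin in both MN libraries (-1.13 and -1.09). Between beta and gamma the minimum of the ESC libraries lay at the Pcdhga2 bin, at -0.929 in WT and -0.998 in KO. That bin stood at -0.44 and -0.42 in WT and KO MNs. The MN libraries had their own minima nearby, at -0.574 in the Pcdhga1 bin in WT and -0.616 in the Taf7 bin in KO. With a 240 kb square the lowest bins between the middles of beta and gamma lay inside beta instead, at -0.55 and -0.64 in ESCs and -0.51 and -0.32 in MNs. The highest scores inside gamma lay at Pcdhgc4 in WT and KO ESCs (0.96 and 0.76) and just before Pcdhgc3 in WT and KO MNs (1.11 and 0.92).

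**Figure D5:**
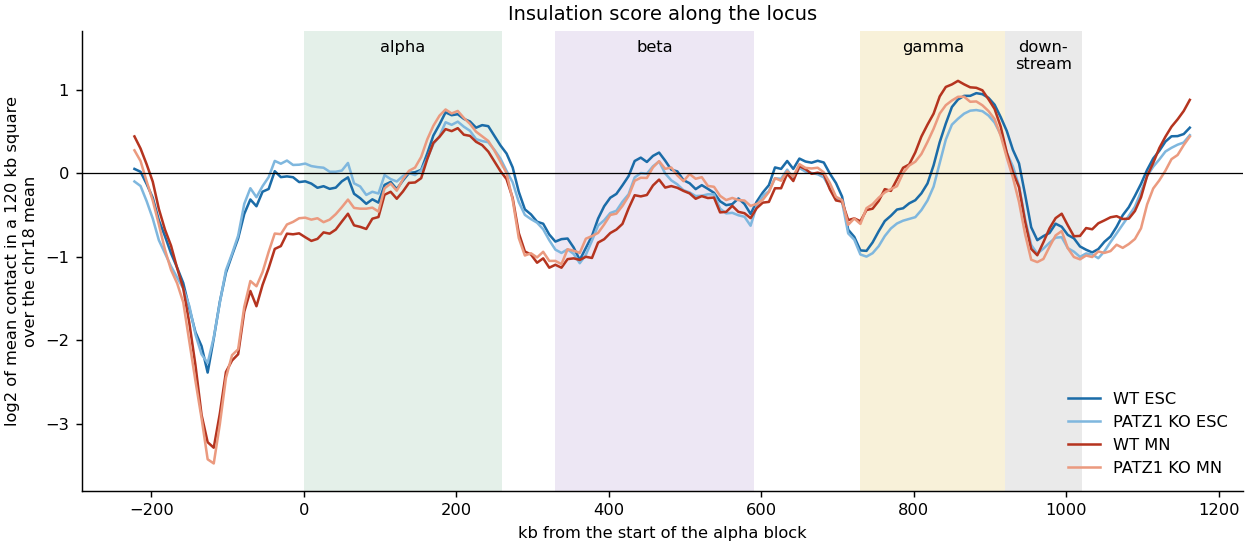
Insulation score (y axis, log2 of the mean contact in a 120 kb square over the chromosome 18 mean) along the region, by kb from the start of the alpha block (x axis), for the 4 libraries; shading marks the blocks and the downstream interval. The minimum before alpha reaches -3.47 in MNs, and the minimum at the start of gamma is deeper in both ESC libraries than in both MN libraries.

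The strongest single pairs were ranked by the mean log2 level of the WT and KO library among pairs at least 40 kb apart with at least 20 contacts, of which there were 256 in ESCs and 54 in MNs. In ESCs the first pair joined the Pcdha12 bin to chr18:37216001-37224000, with 22 contacts in WT (8.14 times the mean) and 19 in KO (7.77). The first 10 ESC pairs all joined bins at the end of the alternate alpha genes to the alpha-beta interval or bins from Pcdhga10 to Pcdhga12 to the downstream interval. In MNs the first pair joined the bin of Pcdhb21 and Pcdhb22 to chr18:37880001-37888000, 368 kb away, with 13 contacts in each library (15.5 and 15.3 times the mean). The next 4 MN pairs joined Pcdhb17 or Pcdhb19 to the same bin or the one before it, and Pcdha12 with chr18:37216001-37224000 followed (13 and 20 contacts, 8.51 and 13.0). The MN beta pairs named here held fewer than 20 contacts in ESCs, so they could not enter the ESC ranking. Their ESC levels ran from 0.797 to 5.92 times the mean, both in WT.

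The differences between PATZ1 KO and WT over the 3 blocks were small, and the sign of most depended on how bin totals were treated. Over all contacts within and between the 3 blocks, KO ESCs held 14733 contacts and WT ESCs 17756, a log2 ratio of -0.09 (-0.12 to -0.06) after scaling. KO MNs held 11806 and WT MNs 10831, a ratio of 0.07 (0.04 to 0.11). Of the placements of this shape along chromosome 18, 12.2% were lower than the ESC value and 36.5% higher than the MN value. Dividing out the totals of the bins turned these ratios to 0.09 and -0.09. In MNs the ratio before this division was 0.18 within alpha (0.11 to 0.25) and 0.23 within beta (0.16 to 0.30). Within gamma it was -0.22 (-0.30 to -0.15), the opposite sign, so the MN ratio over all blocks averages unlike values. Each of these signs turned as well with bin totals divided out. The totals of the beta bins moved the same way as the ratios over all blocks before bin totals were divided out. In ESCs the median beta bin stood at 0.793 of the chromosome median in WT and 0.735 in KO. In MNs it stood at 0.744 in WT and 0.874 in KO. The median gamma bin went the other way in MNs, from 0.911 in WT to 0.848 in KO. The part of bin totals in the result was not tested further.

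The contact of beta with the downstream interval was lower in KO than in WT ESCs, with a log2 ratio of -0.31 (-0.53 to -0.08), and 0.455% of placements were lower still. Gamma with this interval was lower as well, at -0.23 (-0.32 to -0.13), with 2.13% of placements lower. All 13 alternate gamma bins had a ratio below 0 in ESCs (49.7% of chromosome 18 bins at these distances did), but the counting interval lay below 0 in 1 of them (1.41%). Both block ratios came to -0.00 and -0.01 once bin totals were divided out, and the median bin of the downstream interval itself had a total of 0.976 of the chromosome median in WT ESCs and 0.873 in KO ESCs. In MNs beta with the interval had a ratio of 0.11 (-0.03 to 0.26). Gamma with it had -0.17 (-0.28 to -0.06), inside the middle 90% of placements, and this turned to 0.11 with bin totals divided out. The higher beta contact of MNs was thus present in PATZ1 KO as in WT, and whether its size differed between the genotypes was not tested.

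Single pairs were read with a fixed rule: at least 20 contacts in the 2 libraries together and a 2-fold difference after scaling, with no test. Between KO and WT ESCs 18 of 789 pairs of the region were higher (2.28%, against 3.36% over all chromosomes) and 33 lower (4.18%, against 3.66%). With bin totals divided out this balance turned, to 25 of 788 higher (3.17%, against 2.69%) and 18 lower (2.28%, against 3.16%). Between KO and WT MNs 23 of 475 were higher (4.84%, against 5.04%) and 27 lower (5.68%, against 4.92%). Between MNs and ESCs 27 of 650 pairs were higher in WT (4.15%, against 4.86%) and 41 lower (6.31%, against 5.83%). In KO 28 of 570 were higher (4.91%, against 3.69%) and 30 lower (5.26%, against 4.35%). These shares lay on both sides of those of the whole genome. At 3-fold, 9 of the 789 ESC pairs were lower in KO (1.14%, against 0.488%) and 2 higher (0.253%, against 0.417%). Of the 27 pairs lower in KO MNs, 10 lay within the flank after the downstream interval, whose median bin total was 1.09 of the chromosome median in WT MNs and 0.868 in KO MNs. How many of the 475 pairs lay in that flank was not counted, so these 10 cannot be read as a concentration. The rule reaches few of the far pairs: 2 of the pairs higher in WT MNs joined beta to the downstream interval.

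The reference sequence of the region was searched for the core motif of CTCF (12 bases, on both strands). No sequence of this chromosome is printed here. At least 1 match was found in 36.4% of the 33 alpha bins, 27.3% of the 33 beta bins and 25.0% of the 24 gamma bins, against 14.8% of all 10925 chromosome 18 bins. In alpha 14 matches lay on the plus strand and 1 on the minus strand, whereas in beta 0 lay on the plus strand and 9 on the minus strand. Over the chromosome the strands were even, at 953 and 971. Of the 12 bins with an alpha start 10 held a plus match (7.93% of all bins did), and of the 19 with a beta start 8 held a minus match (7.84%). Gamma held 4 on each strand, and of its 16 bins with a start 4 held a plus match and 2 a minus match. Matches were counted anywhere in a bin, and bins that hold close paralogs are not independent of each other. The downstream interval held 3 matches, all on the minus strand, of which 1 was in the bin chr18:37880001-37888000 that the beta genes contacted most in MNs. The alpha-beta interval held 2, both on the plus strand, of which 1 was in chr18:37208001-37216000. No match lay in chr18:37216001-37224000, the highest bin for the alternate alpha promoters in each library but WT MNs. Nor did one lie in chr18:37872001-37880000, the highest bin for the beta promoters in ESCs and the alternate gamma promoters in MNs. A match is a run of letters and not a bound site, and promoters without one may hold a site of other spelling. The median GC content was 41.1% in alpha, 40.7% in beta, 45.2% in gamma and 41.1% over the chromosome.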

How the data were processed

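Micro-C libraries were made with the Dovetail kit, which fixes cells with DSG and formaldehyde and digests chromatin with MNase, from independent pools of cells, 1 library per group. Mapping and matrices were made by Dovetail for the authors on mm10, per the labels (GRCm38); versions are not given in the sources used here. The authors deposited, for each cell state, counts of contacts per pair of 8 kb bins in WT and KO, and a signal adjusted jointly against distance by HiCcompare. Deposited columns of fold differences, Z scores and p-values of the authors' comparison were not used. Counts of pairs at least 8 kb apart were divided by the mean at equal distance over chromosome 18, with unlisted pairs as 0; the listed contacts of a library (110991835 to 170946673) leave a median of 2 to 3 contacts per listed pair of the region. Gene positions came from GENCODE vM21. Symbols came from RefSeq, which matched all 58 protocadherin genes within 500 bases and changed 1 symbol (Pcdha11 to Pcdha10). Levels have exact Poisson intervals and ratios and shares exact binomial intervals (95%), for counting error only. Called pairs needed 20 contacts over both libraries and a 2-fold difference. Insulation used 120 kb squares with at least 80% of pairs between listed bins. Placements needed the same. Named genes were those with the highest and lowest mean log2 level of each group, all C-type genes, genes at block ends and genes of the strongest pairs; others named were chosen after their values were seen. The members and lists were chosen with earlier results of these data known. Alternatives changed the mean, unit, coverage, low-count filter, shortest distance, block edges and pairs shared by the lists, and 1 more, the model of listing, was chosen after seeing the data. Scripts used Python 3.11.15, numpy 2.4.6, scipy 1.17.1 and matplotlib 3.10.9 and were tested on simulated data.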

Additional observations from a re-analysis of the deposited data

Results flagged for a closer look

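The difference between PATZ1 KO and WT had opposite signs in the 2 cell states, with counting intervals away from 0 in both, for contacts within the beta block and for all block contacts. Within beta the log2 ratio of KO to WT was -0.16 in ESCs and 0.23 in MNs. For all contacts within and between the blocks it was -0.092 in ESCs and 0.074 in MNs. With 1 library per group the difference between the cell states was not tested. Dividing out bin totals turned all 4 signs, to 0.12, -0.13, 0.087 and -0.087, and the totals of the beta bins themselves were lower in KO than in WT ESCs (0.735 against 0.793 of the chromosome median) and higher in KO than in WT MNs (0.874 against 0.744).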

How the results depend on the processing

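All values here are log2 unless they are counts. Of 851 values under an alternative, 610 stayed close to the reported value, 193 moved further and 48 turned sign; some of the 193 turned sign as well, where the counting interval of the reported value spanned 0. The beta contact with the downstream interval was higher in MNs than in ESCs under all 9 alternatives other than the model of listing, in both genotypes, from 0.54 to 1.53 in WT and from 0.95 to 1.99 in KO. It came to 0.54 and 0.95 (WT and KO) with the mean over listed pairs, 0.68 and 1.07 over pairs listed in both states, 1.24 in WT with at least 5 contacts, 1.43 in KO with coverage divided out, and 0.74 and 1.52 with the listing modelled, an alternative chosen after seeing the data.

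Dividing out coverage turned most small values. In the order WT ESC, KO ESC, WT MN and KO MN, levels became 0.54, 0.58, 0.88 and 0.73 within alpha, 0.58, 0.70, 0.58 and 0.45 within beta, 0.10, 0.20, 0.41 and 0.21 for alpha with beta, and 0.47, 0.55, 0.63 and 0.54 over all blocks. Within gamma the WT and KO ESC levels became 0.30 and 0.42, beta with the downstream interval 0.33 in KO ESCs, and the median of the beta promoters 0.10 and 0.29 in WT and KO ESCs. Ratios of KO to WT in ESCs became 0.12 within beta, 0.12 within gamma, 0.11 for beta with gamma and 0.087 over all blocks. In MNs they became -0.16 within alpha, -0.13 within beta, 0.11 within gamma, -0.21 for alpha with beta, -0.13 for alpha with its interval, 0.11 for gamma with the downstream interval and -0.087 over all blocks. Ratios of MNs to ESCs became 0.34 within alpha in WT, 0.0017 and -0.24 within beta, -0.0024 and -0.016 within gamma, -0.22 and -0.10 for gamma with the downstream interval, and 0.16 and -0.015 over all blocks in WT and KO. The cause was not tested.

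Over pairs listed in both states the ratio of MNs to ESCs was -0.30 and -0.24 for alpha with gamma, -0.070 for beta with gamma in WT, and -0.060 and 0.11 over all blocks, and the KO ESC level of beta with the downstream interval was 0.46. With the mean over listed pairs beta with gamma was -0.083 in WT. With at least 5 contacts alpha with gamma was -1.98 and all blocks -0.048 in WT, and alpha with gamma could not be computed in KO. Pairs at least 24 kb apart gave 0.022 within alpha in KO MNs and 0.16 within gamma in WT ESCs. The mean over all chromosomes gave -0.14 for KO over WT in ESCs and 0.20 for MNs over ESCs in KO over all blocks. Called pairs numbered 51, 50, 68 and 58 (KO over WT in ESCs and in MNs, MNs over ESCs in WT and in KO), 11, 6, 12 and 13 at 3-fold, and 4, 5, 15 and 8 with at least 40 contacts. At 3-fold the shares higher and lower were 0.253% and 1.14% (0.417% and 0.488% over all chromosomes), 0.211% and 1.05% (0.837% and 0.803%), 0.769% and 1.08% (0.703% and 1.18%), and 0.877% and 1.404% (0.527% and 0.842%). With 40 contacts they were 0.350% and 1.05% (0.698% and 0.825%), 2.15% and 0.538% (2.28% and 1.88%), 2.82% and 3.23% (1.77% and 2.6%), and 1.87% and 1.87% (0.843% and 1.12%). With coverage divided out, KO over WT in ESCs had 25 of 788 pairs higher and 18 lower (3.17% and 2.28%, against 2.69% and 3.16%), where the main setting had 18 and 33 of 789, and in MNs 28 of 474 were called (3.16% higher and 2.74% lower, against 3.01% and 2.82%). For MNs over ESCs it gave 4.16% and 5.55% in WT (4.04% and 5.27%) and 4.57% and 5.62% in KO (3.92% and 4.34%). No paired analysis was possible because each group had 1 library, so the groups share a single replicate number; a fit that assumes the same difference between cell states in both genotypes was not run. A median of 2 to 3 contacts per listed pair limits what single pairs can show.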
